A study of Mus musculus with 9 samples.

Results

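The circadian clock of heart cells is held back by a small group of repressors, and 8 of their genes were followed here in nuclei of the mouse heart after ischemia and reperfusion (I/R), with and without pretreatment with Shexiang Baoxin Pill (SBP, labelled MUSKARDIA). The genes were chosen by name from the known repressors of the loop, with earlier results of these data known: the period genes Per1, Per2 and Per3, the cryptochromes Cry1 and Cry2, the genes Nr1d1 and Nr1d2 of the nuclear receptors REV-ERBα and REV-ERBβ, and Ciart, which encodes the repressor CHRONO. They are 8 of the 23747 genes in the deposited matrices, and each was detected in all 9 libraries. Summed over all nuclei, hearts after I/R held less Per3, Nr1d1, Nr1d2, Ciart and Per2 RNA than sham hearts, whereas Per1, Cry1 and Cry2 did not pass the test. Over whole-heart and cell type sums, Per3 passed in 5 of 5 sets and Ciart in 4 of 4. Nr1d1 and Nr1d2 passed in 3 of 5 and Per2 in 2 of 5.

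The clock of a mammalian cell is a feedback loop of transcription. The activators BMAL1 (gene Arntl) and CLOCK, or its relative NPAS2, bind E-box elements and switch on the Per and Cry genes, whose proteins return to the nucleus and inhibit BMAL1 and CLOCK, while CHRONO inhibits the same pair. The REV-ERB receptors, also switched on through E-boxes, repress Arntl and other genes through ROR elements, where the RORs activate. In the heart the loop runs in cardiomyocytes as well as in the other cell types, and these RNAs rise and fall over the day.

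The series holds 9 libraries of nuclei from C57BL/6 mice of 8 weeks, 1 library per mouse and 3 mice per group. Sham mice received vehicle (carboxymethyl cellulose) by gavage for 7 days and an operation with the needle but without ligation. I/R mice received the same vehicle for 7 days, then ligation of the left anterior descending coronary artery (LAD) for 30 min and 24 h of reperfusion. SBP mice received the drug by gavage for 7 days before the same ligation and reperfusion, so every group shared gavage and operation, and no group had the drug without injury. Tissue came from below the ligation and was frozen whole before nuclei were isolated. The mice lived under a light and dark cycle, and the hour of harvest is not given in the sources used here, so time of day and group cannot be told apart in any comparison of these genes. Library and mouse also coincide, and p-values therefore measure the spread between mice with 1 library each. In the study's read filtering, every sham library lost fewer reads to low quality, and more to unknown bases, than any I/R or SBP library. In comparisons with sham, injury and a technical difference between libraries thus cannot be told apart.

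The 9 libraries held 49171 nuclei and 135423853 unique molecular identifiers (UMIs), with 10329520 to 18205985 UMIs per library and a median of 1540 to 2031 UMIs per nucleus. A pair of libraries shared 4 to 14 barcode sequences. Nuclei were clustered and named from fixed markers, so that cell type names below stand for nuclei that resemble the type. The cardiomyocyte clusters expressed 7 of 7 cardiomyocyte markers and the fibroblast clusters 7 of 7 fibroblast markers, while 6 to 8 of 8 endothelial markers and 7 to 12 of 14 myeloid markers were detected in the clusters of those types. Levels are given in CPM, that is, UMIs summed over the nuclei of a mouse and expressed per 1000000 UMIs of the scaled total of that sum. Values given in a row are those of replicates 1, 2 and 3.

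Cell composition and I/R replicate 1 touch every result on these genes. In whole-heart sums a lower level can mean fewer cells of a type or less RNA per cell, which cannot be told apart, and myeloid nuclei made up 8.48 to 14.4% of nuclei in sham, 18.3 to 35.9% in I/R and 13.0 to 28.3% in SBP. I/R replicate 1 stood apart from its group: 24.0% of its cardiomyocyte nuclei lay in the Ankrd1 cluster (clusters are called here by a gene among their 10 leading genes by fold), against 96.4 to 99.9% in I/R replicates 2 and 3, 82.9 to 99.4% in SBP and 6.9 to 15.5% in sham. It also had the lowest whole-heart level of its group for 8 of the 8 genes. Values without it are given for the called falls of these genes and for most differences between SBP and I/R. They are not given for correlations or for most fold changes of other clock genes.

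The genes lie on 7 chromosomes of the mouse genome (GRCm38). Per1 is at chr11:69095217-69109960 on the plus strand, and the others are on the minus strand: Per2 at chr1:91415982-91459324, Per3 at chr4:151003652-151044665, Cry1 at chr10:85131700-85185064, Cry2 at chr2:92403646-92434043, Nr1d1 at chr11:98767932-98775333, Nr1d2 at chr14:18204054-18239127 and Ciart at chr3:95878503-95882251. Per3 overlaps Camta1 on the same strand, Nr1d1 overlaps Thra on the other strand, and Cry2 and Ciart overlap the non-coding genes D930015M05Rik and C920021L13Rik on the other strand. Whether counting used the strand is not given in the sources used here, so UMIs from a shared stretch cannot be assigned with certainty.

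The 250 bases before the annotated start of 7 of the 8 genes were read from RefSeq (GRCm38.p6), and 3 of them are printed because they held 2 or more motifs: Ciart with 3 E-boxes, Per3 with 2 D-boxes, which are bound by DBP, TEF and HLF, and Cry1 with an E-box and the related E'-box. Sequences run 5′ to 3′ along the gene, and capitals mark the matched motifs.
Ciart, chr3:95882229-95882478, minus strand: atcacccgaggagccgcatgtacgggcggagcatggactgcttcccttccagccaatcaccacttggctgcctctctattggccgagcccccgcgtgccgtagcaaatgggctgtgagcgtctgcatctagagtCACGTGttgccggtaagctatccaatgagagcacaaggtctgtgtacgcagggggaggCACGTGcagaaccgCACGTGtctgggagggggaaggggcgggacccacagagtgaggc
Per3, chr4:151044666-151044915, minus strand: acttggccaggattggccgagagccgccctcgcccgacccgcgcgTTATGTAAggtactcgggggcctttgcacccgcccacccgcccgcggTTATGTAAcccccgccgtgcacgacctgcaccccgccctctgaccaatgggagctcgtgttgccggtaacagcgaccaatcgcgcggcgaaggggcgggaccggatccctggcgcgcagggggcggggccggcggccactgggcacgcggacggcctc
Cry1, chr10:85185055-85185304, minus strand: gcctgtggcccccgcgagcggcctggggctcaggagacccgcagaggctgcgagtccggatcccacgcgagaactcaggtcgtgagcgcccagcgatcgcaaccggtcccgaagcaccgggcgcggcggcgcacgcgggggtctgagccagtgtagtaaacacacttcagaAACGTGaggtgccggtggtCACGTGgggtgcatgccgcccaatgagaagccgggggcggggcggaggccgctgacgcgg

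Motifs were searched on both strands, with palindromes counted once, as CACGTG (E-box), AACGTG or CACGTT (E'-box), TTANGTAA (D-box), TGACGTCA (the cyclic AMP response element) and a ROR element. The 3 E-boxes of Ciart begin at bases -116, -58 and -44 from the start, the D-boxes of Per3 at -205 and -158, and the E-box and E'-box of Cry1 at -60 and -79. The first window of Per1 held an E-box at -166, Cry2 an E'-box at -166 and Nr1d1 an E'-box at -28, whereas the second window of Per1 and that of Nr1d2 held none of these letters, and no window held a cyclic AMP or ROR element. For Cry2 and Nr1d1 the bases after the start used here were found in no annotated transcript of the gene. Their positions are therefore less certain. Of 32851 promoters of the same length, 6.02% held an E-box, 3.85% an E'-box, 2.06% a D-box, 1.55% a cyclic AMP response element and 0.320% a ROR element. At least 3 E-boxes were found in 0.0609% and 2 or more D-boxes in 0.0731% of promoters. The match of letters is a description and not evidence of binding.

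I/R mice were first compared with sham mice, which asks how the repressors differed after ischemia and reperfusion. A gene was called where its log2 fold change, on log2(CPM + 1), exceeded 0.25 in size and limma gave an adjusted p (Benjamini-Hochberg, over all genes) not above 0.05. In whole-heart sums 5 of the 8 genes were called, all lower after I/R, while 11.5% of all genes tested were called in either direction. The median log2 fold change of the 8 genes was -1.41, against -0.03 over all genes. Ciart fell the most (6.5-fold), followed by Nr1d1 (4.52-fold), Per3 (4.33-fold), Nr1d2 (3.14-fold) and Per2 (2.26-fold).

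**Figure D1:**
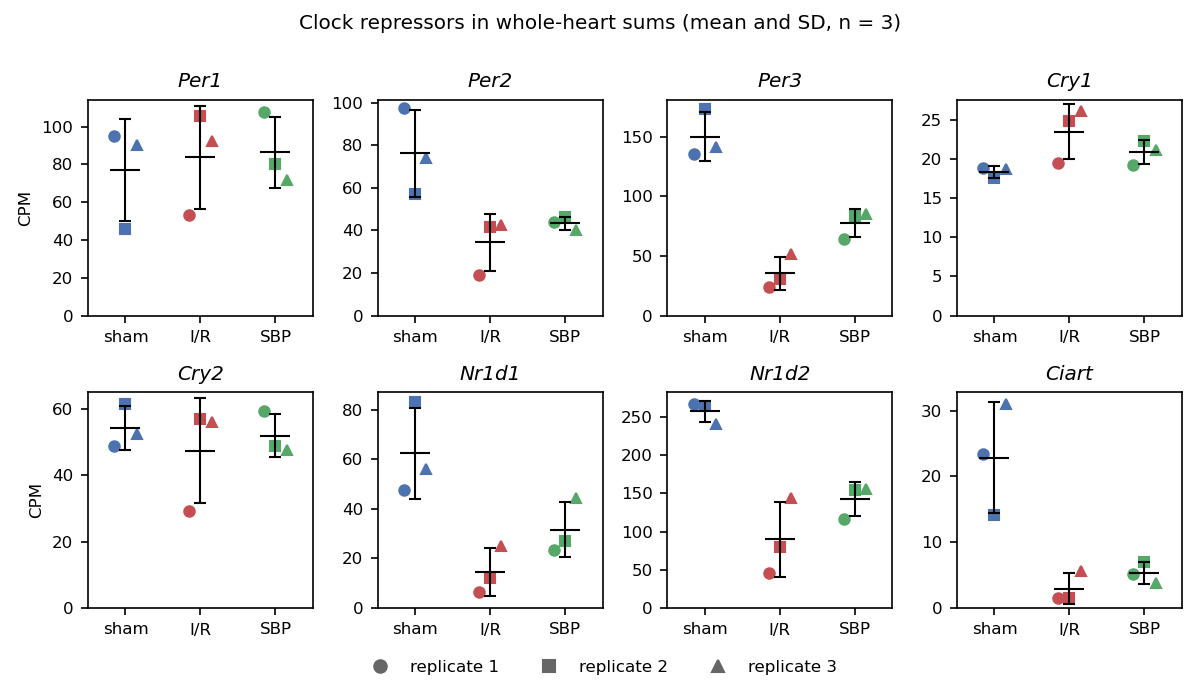
Level of each of the 8 genes in whole-heart sums, in CPM, 1 point per mouse, with the mean and SD of the 3 mice of a group as bars. For Per2, Per3, Nr1d1, Nr1d2 and Ciart every I/R mouse lies below every sham mouse, and for Per3 the SBP mice lie between both groups. The share of all genes lower in every I/R mouse is not given for these sums.

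The period proteins form the core of the repressor complex, and their genes did not move together. Per3 stood at 135, 173 and 141 CPM in the sham mice, 24.3, 30.5 and 51.2 CPM in the I/R mice and 64.1, 83.5 and 84.9 CPM in the SBP mice. The lowest sham mouse was thus far above the highest I/R mouse, and the SBP mice lay between. The group means were 149.9 ± 20.5 CPM in sham and 35.3 ± 14.1 CPM in I/R (SD, n = 3), a fall by 2.11 on the log2 scale (SE 0.25, adjusted p = 0.00222), and the call held in 18 of 18 alternatives.

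Per2, which carries signals from outside the cell into the loop, was at 97.4, 57.0 and 74.0 CPM in the sham mice, 19.0, 41.5 and 42.8 CPM in the I/R mice and 43.9, 46.2 and 40.0 CPM in the SBP mice. Sham and I/R mice did not overlap, but sham replicate 1 was high and I/R replicate 1 low. Its fall of 2.26-fold (log2 fold change -1.18, SE 0.29, adjusted p = 0.0339) was called in 10 of 18 alternatives and was lost without sham replicate 1 (adjusted p = 0.112), sham replicate 3 (0.0999), I/R replicate 2 (0.0521), SBP replicate 1 (0.0511) or SBP replicate 3 (0.0535).

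Per1, an early responder to hormones and cyclic AMP, was at 95.3, 45.8 and 90.2 CPM in the sham mice, 53.2, 106 and 92.2 CPM in the I/R mice and 108, 80.0 and 71.9 CPM in the SBP mice. The 3 groups overlapped throughout, with sham replicate 2 the lowest of all. The log2 fold change between I/R and sham was 0.13, with a 95% interval of -0.59 to 0.85. The 3 mice per group thus leave a change of either sign within these bounds possible.

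The cryptochromes, the main inhibitors of BMAL1 and CLOCK, did not pass the test in whole-heart sums. Cry1 was at 18.8, 17.5 and 18.7 CPM in the sham mice, 19.4, 24.9 and 26.2 CPM in the I/R mice and 19.2, 22.3 and 21.1 CPM in the SBP mice. All I/R mice were above all sham mice, by little, and the difference (log2 fold change 0.33, SE 0.14, adjusted p = 0.154) missed the threshold. Cry2 was at 48.7, 61.5 and 52.3 CPM in the sham mice, 29.1, 57.1 and 56.1 CPM in the I/R mice and 59.4, 48.7 and 47.7 CPM in the SBP mice. I/R replicate 1 was the lowest of all mice and the others lay close together (log2 fold change -0.24, 95% interval -0.78 to 0.29).

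Both REV-ERB genes fell. Nr1d1 was at 47.7, 83.2 and 56.2 CPM in the sham mice, 6.36, 12.2 and 25.1 CPM in the I/R mice and 23.5, 27.0 and 44.3 CPM in the SBP mice. Even the highest I/R mouse had less than the lowest sham mouse. Its log2 fold change was -2.18 (SE 0.42, adjusted p = 0.0139). The call was kept in 17 of 18 alternatives, the exception being the fit without sham replicate 3 (adjusted p = 0.0543). Nr1d2 was at 266, 264 and 241 CPM in the sham mice, 46.3, 80.2 and 143 CPM in the I/R mice and 117, 154 and 156 CPM in the SBP mice. The I/R mice differed among themselves while the sham mice were close together. The fall (log2 fold change -1.65, SE 0.33, adjusted p = 0.0149) was called in 15 of 18 alternatives, but not without sham replicate 1 (adjusted p = 0.0512), sham replicate 3 (0.0543) or I/R replicate 2 (0.0502).

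Ciart, whose protein CHRONO binds BMAL1, was at 23.4, 14.2 and 31.0 CPM in the sham mice, 1.5, 1.58 and 5.69 CPM in the I/R mice and 5.14, 7.00 and 3.72 CPM in the SBP mice. These levels rest on 225, 196 and 492 UMIs in sham, 29, 23 and 100 UMIs in I/R and 68, 123 and 51 UMIs in SBP, so the low end is imprecise. The highest I/R mouse was well below the lowest sham mouse. The log2 fold change was -2.70 (SE 0.41, adjusted p = 0.00636), called in 17 of 17 alternatives. Without I/R replicate 1 the 5 genes stayed called, with log2 fold changes of -0.81 for Per2, -1.89 for Per3, -1.73 for Nr1d1, -1.25 for Nr1d2 and -2.45 for Ciart.

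**Figure D2:**
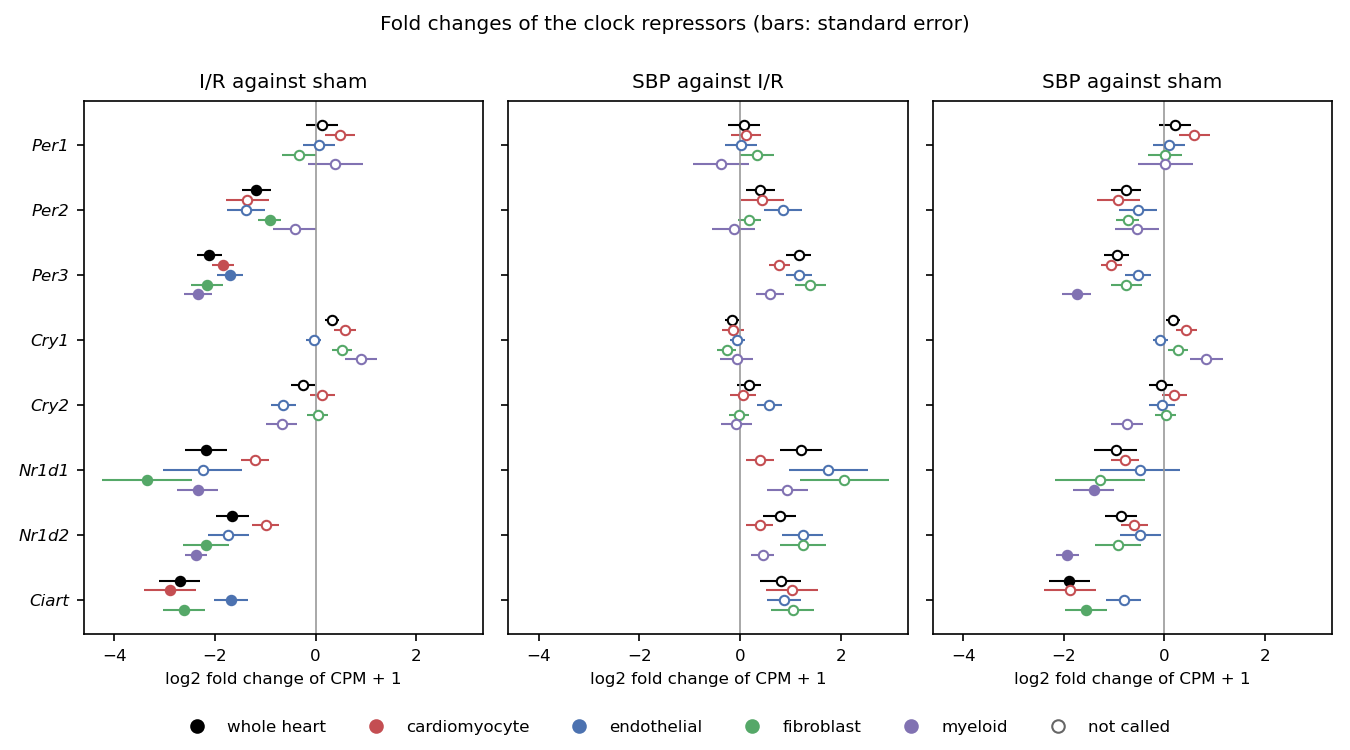
Log2 fold change of each gene with its SE, on log2(CPM + 1), in whole-heart sums and in 4 cell types, 1 panel per comparison, with filled points for called genes. All 17 filled points of I/R against sham lie below 0, SBP against I/R has none, and SBP against sham has 5, all below 0. Whole-heart sums hold the nuclei of the cell types, so the points are not separate results. Ciart in endothelial cells and fibroblasts and Nr1d1 in myeloid cells were tested through the groups in which they are higher.

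The same comparison was then made within cell types, each summed per mouse. Cardiomyocytes had 2 of 8 genes called (0.825% of all genes were called), endothelial cells 2 of 8 (3.15%), fibroblasts 5 of 8 (11.5%) and myeloid cells 3 of the 7 that passed the filter on low values (17.6%), every one lower after I/R. Ciart did not pass that filter in myeloid cells. Per3 was called in 5 of 5 sets of sums, Ciart in 4 of 4, Nr1d1 and Nr1d2 in 3 of 5 and Per2 in 2 of 5, whereas Per1, Cry1 and Cry2 were called in none. The median log2 fold change of the genes was -1.09 in cardiomyocytes, -1.53 in endothelium, -1.53 in fibroblasts and -0.67 in myeloid nuclei, against -0.03, -0.01, -0.01 and 0.07 over all genes. Without I/R replicate 1, Per2 in fibroblasts lost its call and the other calls held. The log2 fold change of Per3 was then -1.72, -1.42, -1.86 and -2.52 in the same order, and that of Ciart -2.46, -1.70 and -2.24 in the first 3 types. Nr1d2 was at -1.55 in fibroblasts and -2.51 in myeloid nuclei, and Nr1d1 at -2.18 and -2.38. The filter asked for a level worth 10 UMIs in 3 mice of any group. No I/R mouse reached that level for Ciart in endothelial cells or Nr1d1 in myeloid cells, and 1 did for Ciart in fibroblasts, so these genes were tested through the groups in which they are higher.

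**Figure D3:**
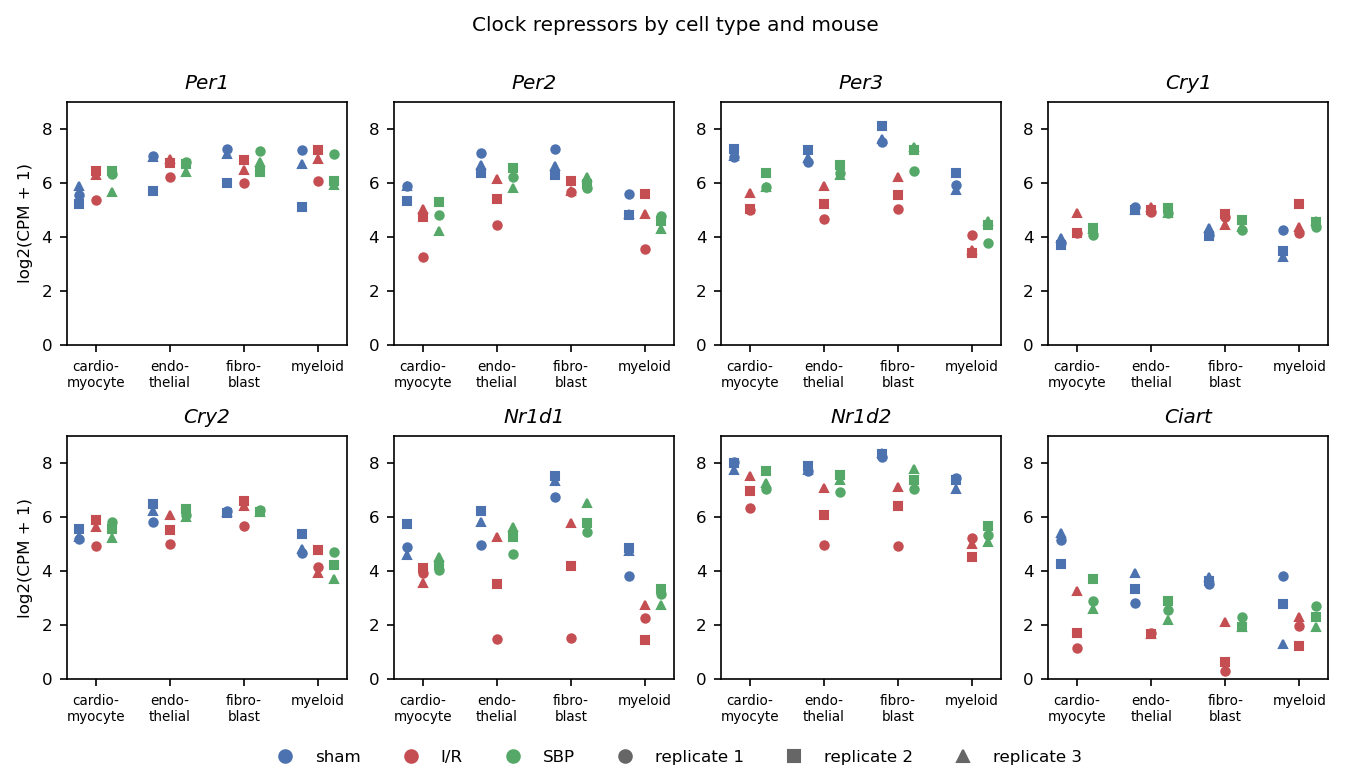
Level of each gene in cardiomyocytes, endothelial cells, fibroblasts and myeloid cells as log2(CPM + 1), 1 point per mouse and 1 colour per group. The I/R mice lie below the sham mice for Per3 in all 4 types, while for Cry1 in endothelial cells the 9 mice lie close together.

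In cardiomyocytes Per3 and Ciart fell. Per3 was at 123, 149 and 127 CPM in the sham mice, 30.9, 31.8 and 48.8 CPM in the I/R mice and 56.1, 81.0 and 56.0 CPM in the SBP mice, with no overlap between I/R and sham (log2 fold change -1.84, SE 0.21, adjusted p = 0.00371, 18 of 18 alternatives). Ciart was at 34.4, 18.0 and 41.7 CPM in the sham mice, 1.23, 2.29 and 8.5 CPM in the I/R mice and 6.46, 12.1 and 5.07 CPM in the SBP mice. Its 7.45-fold fall (log2 fold change -2.90, SE 0.51, adjusted p = 0.0324) was called in 10 of 18 alternatives. It was lost without sham replicate 1 (adjusted p = 0.127), sham replicate 2 (0.0525), sham replicate 3 (0.156) or I/R replicate 2 (0.158). It rests on 8, 12 and 70 UMIs in the I/R mice.

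The REV-ERB genes did not pass the test in cardiomyocytes. Nr1d1 was at 28.5, 52.3 and 23.0 CPM in the sham mice, 14.3, 16.2 and 10.9 CPM in the I/R mice and 15.6, 17.9 and 22.2 CPM in the SBP mice. Nr1d2 was at 262, 257 and 210.2 CPM in the sham mice, 79.9, 123 and 180.4 CPM in the I/R mice and 131, 205 and 151 CPM in the SBP mice. For both, the I/R mice were below the sham mice without overlap, as they were for 8.36% of all genes, yet the adjusted p was 0.0869 for Nr1d1 and 0.140 for Nr1d2. Without I/R replicate 1 the log2 fold change of Nr1d1 was -1.23 with an adjusted p of 0.0452, in a fit that called 814 of 12608 genes against 106 of 12850 with all mice. Per2 (log2 fold change -1.35, adjusted p = 0.196), Cry1 (0.58, 0.257), Per1 (0.48, 0.502) and Cry2 (0.14, 0.838) also missed the threshold. In these sums 9 of 14 myeloid markers were higher in every I/R than in every sham mouse, with a summed level of 63.4 to 71.5 CPM in sham and 120.3 to 246 CPM in I/R, and fibroblast markers summed to 258 to 283 CPM in sham and 383 to 467 CPM in I/R (3 of 7 higher). Their part in the result was not tested.

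In endothelial cells the called genes were again Per3 and Ciart. Per3 was at 107, 149 and 119 CPM in the sham mice, 24.6, 35.8 and 58.3 CPM in the I/R mice and 81.2, 98.7 and 77.3 CPM in the SBP mice (log2 fold change -1.70, SE 0.26, adjusted p = 0.00915). Ciart was at 6.12, 9.01 and 14.3 CPM in the sham mice, 2.28, 2.16 and 2.17 CPM in the I/R mice and 4.86, 6.43 and 3.62 CPM in the SBP mice, from 5, 5 and 6 UMIs in I/R (log2 fold change -1.68, SE 0.34, adjusted p = 0.0227). Both had every I/R mouse below every sham mouse. The call for Per3 was lost without sham replicate 2 (adjusted p = 0.0516), and that for Ciart without sham replicate 2 (0.0929), sham replicate 3 (0.0985) or I/R replicate 2 (0.0722).

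Nr1d2 came close in endothelial cells, at 206, 234 and 212 CPM in the sham mice, 30.5, 66.9 and 132 CPM in the I/R mice and 120.5, 186 and 166 CPM in the SBP mice (log2 fold change -1.73, SE 0.41, adjusted p = 0.0515). Per2 was at 137, 81.7 and 101 CPM in the sham mice, 21.0, 41.4 and 69.5 CPM in the I/R mice and 74.1, 92.8 and 54.4 CPM in the SBP mice (adjusted p = 0.0851). I/R mice were below sham mice without overlap for both, as for 10.1% of all genes. Nr1d1 ranged from 1.82 CPM in I/R replicate 1, which is 4 UMIs, to 37.3 CPM in I/R replicate 3, which overlapped the sham mice at 30.6, 72.7 and 54.6 CPM. Without I/R replicate 3, Per2, Cry2, Nr1d1 and Nr1d2 were called as well, 6 genes in all, whereas without sham replicate 2 none was. Over all genes these fits had 619 of 12051 and 61 of 12005 called, against 384 of 12209 with all mice. Cry1 varied little here, between 28.6 and 33.4 CPM in all 9 mice. Summed cardiomyocyte markers in these sums were lower after I/R for 7 of 7 markers (7414 to 9313 CPM in sham, 2824 to 5005 CPM in I/R), and 10 of 14 myeloid markers were higher (231 to 307 against 492 to 889 CPM). Their part in the result was not tested.

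With all mice, fibroblasts had the most calls among the 4 types. Of all genes 11.5% were called there, against 0.825% in cardiomyocytes, 3.15% in endothelial cells and 17.6% in myeloid cells. Per3 was at 182, 275 and 197 CPM in the sham mice, 31.6, 46.0 and 72.6 CPM in the I/R mice and 86.4, 146 and 159 CPM in the SBP mice (log2 fold change -2.16, SE 0.31, adjusted p = 0.00173). Nr1d2 was at 299.7, 322 and 332 CPM in the sham mice, 29.2, 83.0 and 138 CPM in the I/R mice and 129, 164 and 219 CPM in the SBP mice (log2 fold change -2.17, SE 0.46, adjusted p = 0.0158). In both genes every I/R mouse was below every sham mouse, and every SBP mouse was too. The share of all genes that did so in fibroblasts is not given here. Nr1d1 was at 106, 180.5 and 159 CPM in the sham mice, 1.90, 17.4 and 54.3 CPM in the I/R mice and 42.2, 54.5 and 91.1 CPM in the SBP mice, from 8, 62 and 228 UMIs in I/R. Thus 1 I/R mouse had almost none while another had about as much as SBP mice. Its 10.2-fold fall (log2 fold change -3.35, SE 0.89, adjusted p = 0.0455) was called in 7 of 18 alternatives. It was lost without sham replicate 1 (adjusted p = 0.0883), 2 (0.101) or 3 (0.0940), I/R replicate 2 (0.107), or SBP replicate 2 (0.0687) or 3 (0.0658). Without I/R replicate 1 it was -2.18 with an adjusted p of 0.0231.

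Ciart was low in fibroblasts, at 10.4, 11.3 and 12.6 CPM in the sham mice, 0.237, 0.561 and 3.33 CPM in the I/R mice and 3.94, 2.87 and 2.84 CPM in the SBP mice. These were 23, 31 and 36 UMIs in sham and 1, 2 and 14 UMIs in I/R (log2 fold change -2.61, SE 0.42, adjusted p = 0.00219, 18 of 18 alternatives). Per2 was at 149.9, 76.8 and 97.8 CPM in the sham mice, 49.1, 65.3 and 51.4 CPM in the I/R mice and 55.1, 60.7 and 72.5 CPM in the SBP mice. Its fall was smaller (log2 fold change -0.91, SE 0.23, adjusted p = 0.0231) and the call was lost without sham replicate 1 (adjusted p = 0.0811), sham replicate 3 (0.0676) or I/R replicate 1 (0.0594). Cry1 was higher in every I/R than in every sham mouse without passing (0.53, adjusted p = 0.103), and Per1 (-0.33) and Cry2 (0.04) had adjusted p of 0.602 and 0.930. Cardiomyocyte markers summed to 4478 to 5612 CPM in sham and 1578 to 2416 CPM in I/R (7 of 7 lower), and myeloid markers to 302 to 593 and 463 to 969 CPM (9 of 14 higher). Their part in the result was not tested.

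In myeloid cells Per3, Nr1d1 and Nr1d2 fell. Nr1d2 was at 171, 166 and 132 CPM in the sham mice, 36.0, 21.7 and 31.2 CPM in the I/R mice and 39.5, 49.2 and 33.0 CPM in the SBP mice. It had the smallest adjusted p of the 8 genes in any sums (log2 fold change -2.38, SE 0.22, adjusted p = 4.22e-05). Per3 was at 59.1, 81.7 and 52.0 CPM in the sham mice, 15.8, 9.64 and 10.4 CPM in the I/R mice and 12.6, 20.5 and 22.9 CPM in the SBP mice (log2 fold change -2.34, SE 0.28, adjusted p = 0.000267). Nr1d1 was at 13.1, 28.1 and 26.0 CPM in the sham mice, 3.75, 1.72 and 5.63 CPM in the I/R mice and 7.89, 9.06 and 5.73 CPM in the SBP mice (log2 fold change -2.34, SE 0.41, adjusted p = 0.00221, from 18, 5 and 13 UMIs in I/R). For all 3 genes both injured groups lay below sham without overlap. The share of all genes that did so in myeloid sums is not given here. Cry1 was at 18.1, 10.2 and 8.67 CPM in the sham mice, 16.7, 36.1 and 19.5 CPM in the I/R mice and 19.7, 22.6 and 22.9 CPM in the SBP mice. Its positive difference (0.90) had an adjusted p of 0.0712. Per1 (0.40), Per2 (-0.42) and Cry2 (-0.67) had adjusted p of 0.666, 0.549 and 0.157.

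The myeloid nuclei of injured and sham hearts were spread over the same clusters in different shares. The Cd163 cluster held 89.9 to 93.9% of the type's nuclei in sham, 15.6 to 48.1% in I/R and 24.1 to 49.3% in SBP. The Gpnmb cluster held 2.76 to 6.51% in sham, 45.2 to 78.4% in I/R and 45.7 to 68.8% in SBP, with 36.1% of its nuclei from I/R replicate 1. Within the Cd163 cluster, Per3 was at 64.3, 83.9 and 53.2 CPM in sham, 39.9, 13.5 and 12.2 CPM in I/R and 22.1, 42.9 and 38.0 CPM in SBP. Nr1d2 was there at 182, 189.8 and 138 CPM in sham, 19.2, 20.9 and 35.5 CPM in I/R and 54.4, 83.1 and 42.3 CPM in SBP. For both genes every I/R mouse was below every sham mouse, and the share of all genes that did so was not counted in this cluster. The fall between I/R and sham was called within this cluster for both genes (Per3 -1.72, adjusted p = 0.0450, and Nr1d2 -2.71, adjusted p = 0.000627), a fit added after seeing the data. In the Gpnmb cluster, Nr1d2 was at 39.6, 20.01 and 28.2 CPM in I/R and 25.0, 40.2 and 23.8 CPM in SBP. In the myeloid sums 7 of 7 cardiomyocyte markers were lower after I/R (5848 to 7146 against 1692 to 2787 CPM) and 6 of 8 endothelial markers were (363 to 444 against 229 to 283 CPM). B cell markers summed to 621 to 706 CPM in sham and 48.6 to 149 CPM in I/R, with 1 of 5 lower in every I/R mouse. Smooth muscle and pericyte markers had 3 of 8 lower and fibroblast markers 3 of 7 higher. Their part in the result was not tested.

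Clusters within the other types had the same order of group means for Per3, here in CPM of the cluster's own total and without a test. In the cardiomyocyte Ankrd1 cluster, Per3 was at 112, 187 and 114 CPM in sham, 20.4, 33.7 and 49.8 CPM in I/R and 52.6, 76.3 and 53.3 CPM in SBP. In the Mhrt cluster it was at 121, 159 and 124 CPM in sham against 32.5 CPM in I/R replicate 1 and 57.4 CPM in I/R replicate 3, and 93.9 and 74.5 CPM in SBP replicates 2 and 3, the remaining sums being under 200000 UMIs. I/R replicate 1 thus had a low level in both clusters. The endothelial Flt1 cluster had 96.9, 148 and 127 CPM in sham, 33.2, 42.3 and 46.1 CPM in I/R and 65.7, 86.8 and 61.5 CPM in SBP. The Npr3 cluster, whose name gene is an endocardial marker, had 121, 175 and 95.3 CPM in sham, 16.7, 31.5 and 71.3 CPM in I/R and 94.1, 127 and 104 CPM in SBP, so that SBP mice overlapped sham mice in this cluster.

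The fibroblast clusters differed in level. In the Scara5 cluster, Per3 was at 178, 274 and 186 CPM in sham, 47.5, 65.7 and 84.4 CPM in I/R and 101, 196 and 189 CPM in SBP. The Tnc cluster held 0.136 to 0.255% of fibroblast nuclei in sham, too few to give a level, against 9.01 to 32.0% in I/R and 8.46 to 20.1% in SBP. Per3 was there at 17.4, 16.8 and 24.3 CPM in I/R and 33.2, 62.7 and 29.3 CPM in SBP. Every I/R and SBP mouse had less Per3 in the Tnc cluster than in its own Scara5 cluster. For Nr1d2 the Tnc cluster had 36.3, 53.5 and 64.3 CPM in I/R and 78.0, 86.8 and 87.8 CPM in SBP, and the Scara5 cluster 26.3, 105 and 156 CPM in I/R and 143, 211 and 249 CPM in SBP. I/R replicate 1 was the mouse in which the order of the clusters was turned. Within the Scara5 cluster alone Per3 and Ciart were called in I/R against sham, while Nr1d2 (-2.02, adjusted p = 0.0754), Nr1d1 (-3.18, adjusted p = 0.105) and Per2 (-0.72, adjusted p = 0.113) were not. Ciart was there at 10.2, 11.3 and 11.9 CPM in sham and 0, 0.463 and 3.85 CPM in I/R. The size of its fall thus depends on levels near the floor. The share of all genes called in this cluster is not given here.

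**Figure D4:**
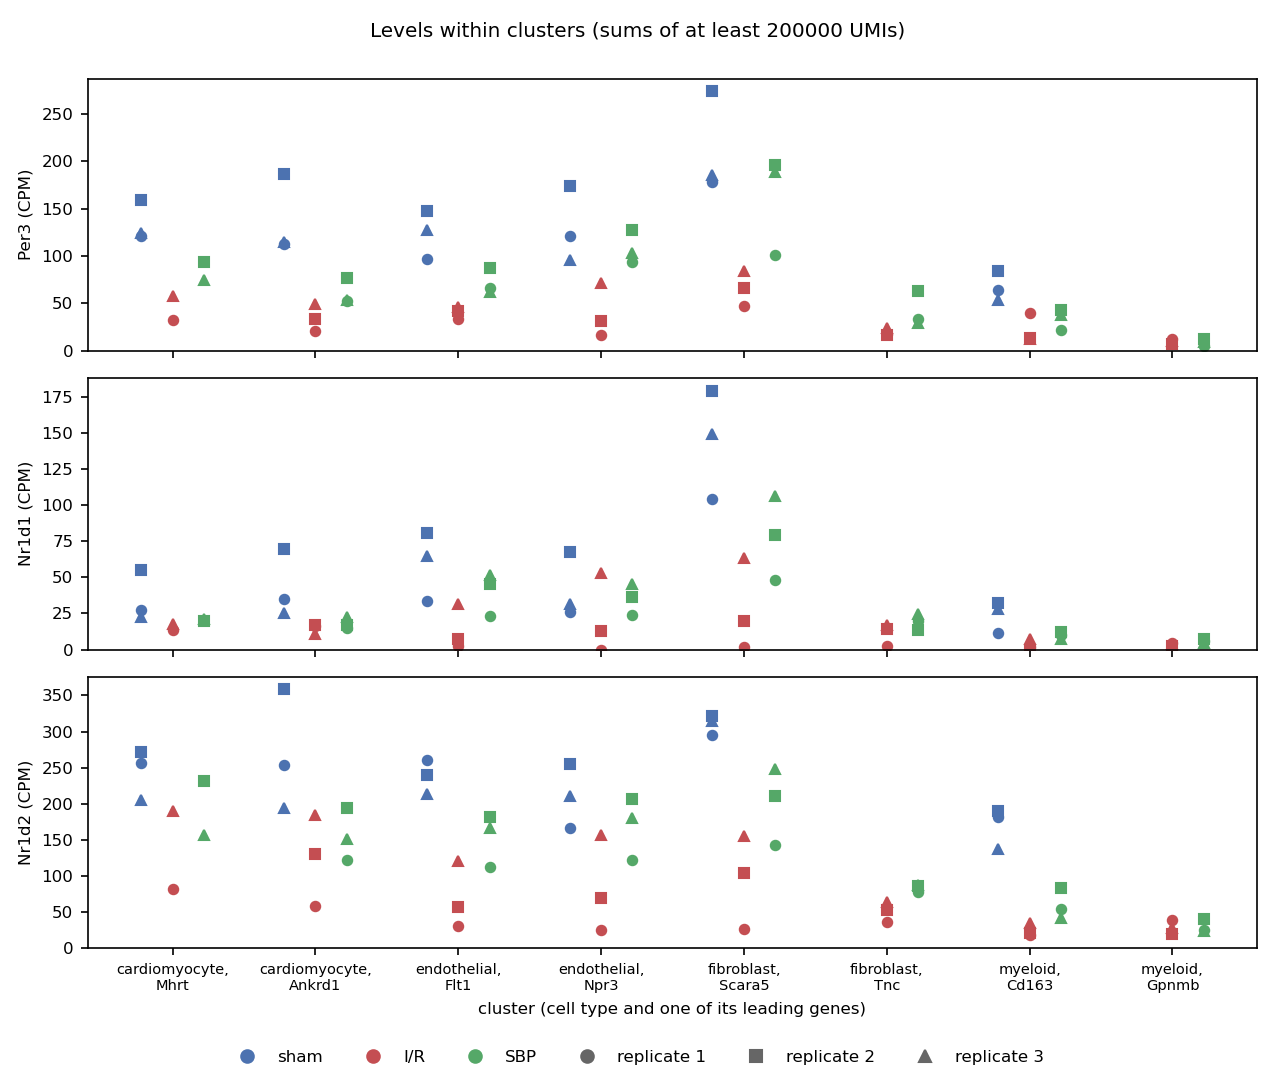
Levels of Per3, Nr1d1 and Nr1d2 in 8 clusters of the 4 main cell types, in CPM of the cluster's own total, 1 point per mouse, for sums of at least 200000 UMIs. Per3 is lower in I/R than in sham in every cluster with both groups, at 47.5, 65.7 and 84.4 against 178, 274 and 186 CPM in the Scara5 fibroblast cluster.

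Whether the fall differed between cell types was tested on the difference within each mouse between a type and the mean of the other 3. Nr1d2 was the only one of the genes called: its log2 fold change in cardiomyocytes was 1.10 higher, that is, less negative, than in the other types (SE 0.17, adjusted p = 0.0135), where 155 of 10094 genes were called. It held without I/R replicate 1 (1.06, adjusted p = 0.0192) and was lost without sham replicate 2, sham replicate 3 or I/R replicate 2, with adjusted p between 0.0183 and 0.0859 over the 9 fits. The fold change of Nr1d1 was 1.45 higher in cardiomyocytes (adjusted p = 0.224), and the next were Cry2 in cardiomyocytes (0.56, adjusted p = 0.0730), Per1 in fibroblasts (-0.64, adjusted p = 0.0837) and Cry1 in endothelial cells (-0.70, adjusted p = 0.0862). For Per3 no difference between types passed, and Ciart could not be tested because it failed the filter in myeloid cells.

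SBP mice were compared with I/R mice to ask whether the drug changed the repressors after the same injury. The I/R mice serve in this comparison and in the preceding one. No gene of the 8 was called in any of the 5 sets of sums, and neither was any other gene (0% of genes in whole-heart sums, 0% in cardiomyocytes, 0% in endothelium, 0% in fibroblasts and 0% in myeloid nuclei) with limma or with voom weights. At an unadjusted p under 0.05 limma had 721 genes in whole-heart sums, 276 in cardiomyocytes, 631 in endothelium, 457 in fibroblasts and 421 in myeloid nuclei, and of the 8 genes 3, 1, 5, 4 and 1. The median log2 fold change of the genes was 0.60, 0.40, 0.86, 0.69 and -0.07 in this order of sums, against 0.00, 0.00, 0.00, 0.01 and -0.02 over all genes.

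For Per3 the groups separated. The whole-heart SBP mice, at 64.1, 83.5 and 84.9 CPM, were all above the I/R mice, at 24.3, 30.5 and 51.2 CPM. The log2 fold change was 1.17 (95% interval 0.62 to 1.72) with an adjusted p of 0.999. Without overlap, SBP was also above I/R for Per3 in cardiomyocytes (0.78, 0.32 to 1.25), endothelial cells (1.17, 0.60 to 1.74) and fibroblasts (1.40, 0.71 to 2.08), for Ciart in endothelial cells (0.87, 0.13 to 1.62) and for Nr1d1 in myeloid cells (0.94, 0.06 to 1.82). These are 1 of 8 genes in whole-heart sums, 1 in cardiomyocytes, 2 in endothelium, 1 in fibroblasts and 1 in myeloid nuclei. Of all genes, 4.95% in whole-heart sums, 2.66% in cardiomyocytes, 4.76% in endothelium, 4.95% in fibroblasts and 4.12% in myeloid nuclei were higher in SBP without overlap. For Ciart in endothelial cells and Nr1d1 in myeloid cells 0 I/R mice reached the level of the filter. Both were thus tested through the higher groups. The lowest SBP mouse for myeloid Nr1d1 had 5.73 CPM (8 UMIs) and the highest I/R mouse 5.63 CPM (13 UMIs). Endothelial Per3 was called in 1 fit, that without I/R replicate 3 (adjusted p = 0.0410, and up to 1.00 in the others).

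The REV-ERB genes and Ciart had positive differences with wide intervals. For whole-heart Nr1d1 the log2 fold change was 1.21 (0.27 to 2.15), for Nr1d2 0.79 (0.06 to 1.52) and for Ciart 0.81 (-0.10 to 1.72). In each of them I/R replicate 3 overlapped the SBP mice. In fibroblasts the values were 2.08 (0.04 to 4.11) for Nr1d1, 1.25 (0.22 to 2.28) for Nr1d2 and 1.04 (0.13 to 1.96) for Ciart, and in endothelial cells 1.76 (-0.02 to 3.53) for Nr1d1, 1.25 (0.34 to 2.15) for Nr1d2, 0.86 (0.01 to 1.70) for Per2 and 0.59 (0.03 to 1.14) for Cry2. In myeloid cells Per3 (0.59, -0.01 to 1.20) and Nr1d2 (0.45, -0.03 to 0.93) differed less. Per2 (0.41, -0.25 to 1.07), Per1 (0.08, -0.63 to 0.80), Cry1 (-0.15, -0.47 to 0.16) and Cry2 (0.18, -0.35 to 0.72) in whole-heart sums had intervals that included 0. Without I/R replicate 1 most of these differences were smaller. In fibroblasts Nr1d1 was then at 0.92, Nr1d2 at 0.63, Ciart at 0.69 and Per3 at 1.11, and in endothelial cells Nr1d1 at 0.80, Nr1d2 at 0.72, Per2 at 0.43, Cry2 at 0.33 and Per3 at 0.89. Whole-heart Nr1d1 was at 0.76, Nr1d2 at 0.39, Ciart at 0.56, Per2 at 0.04 and Per3 at 0.94, and Per3 in cardiomyocytes at 0.67. In myeloid cells Per3 (0.79) and Nr1d2 (0.59) were not smaller, and neither was Ciart in endothelial cells (0.89). A missed threshold does not show that SBP and I/R mice were alike.

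SBP mice were last compared with the sham mice, which also served in the first comparison. In whole-heart sums 1 of the 8 genes was called (3.35% of all genes): Ciart was 3.71-fold lower in SBP (log2 fold change -1.89, SE 0.41, adjusted p = 0.0411), from 22.8 ± 8.43 CPM in sham to 5.29 ± 1.64 CPM in SBP (SD, n = 3). The SBP and sham mice did not overlap, but 8 of 17 alternatives kept the call. It was lost without sham replicate 1 (adjusted p = 0.124), sham replicate 3 (0.159), SBP replicate 1 (0.126), SBP replicate 2 (0.0804) or SBP replicate 3 (0.114). Per3 (-0.95, adjusted p = 0.0636), Nr1d2 (-0.86, 0.162), Per2 (-0.77, 0.167) and Nr1d1 (-0.97, 0.213) were lower in every SBP than in every sham mouse without passing, as were 17.8% of all genes, called or not. Leaving out I/R replicate 1 gave calls for Ciart, Nr1d2, Per2 and Per3, and leaving out I/R replicate 3 gave 3 of these, without Per2. These fits also had more calls over all genes, 1067 of 15870 and 982 of 15867 against 539 of 16066 with all mice.

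By cell type, no gene was called in cardiomyocytes (0 of 8, against 0.14% of all genes) or endothelial cells (0 of 8, 2.11%), 1 of 8 in fibroblasts (6.07%) and 3 of 7 in myeloid nuclei (12.7%). The median log2 fold change was -0.81 in whole-heart sums, -0.70 in cardiomyocytes, -0.48 in endothelium, -0.74 in fibroblasts and -0.74 in myeloid nuclei, against -0.01, -0.03, 0.00, 0.01 and 0.05 over all genes. At an unadjusted p under 0.05 there were 4 of 8 in cardiomyocytes (1730 of 12850 genes in all) and 1 of 8 in endothelial cells (1924 of 12209), and voom weights also called none in either. In myeloid cells Nr1d2 (log2 fold change -1.93, SE 0.22, adjusted p = 0.000244), Per3 (log2 fold change -1.74, SE 0.28, adjusted p = 0.00196) and Nr1d1 (log2 fold change -1.40, SE 0.41, adjusted p = 0.0398) were lower in SBP. For Nr1d1, 3 sham, 0 I/R and 2 SBP mice reached the level of the filter, with 10, 30 and 8 UMIs in SBP. It was thus tested through the sham mice, in which it is higher. Nr1d2 kept the call in 18 of 19 alternatives, Per3 in 17 of 19 and Nr1d1 in 8 of 17. Nr1d1 lost it without sham replicate 2 (adjusted p = 0.133), sham replicate 3 (0.127), SBP replicate 1 (0.0732), SBP replicate 2 (0.0851) or SBP replicate 3 (0.127). Within the Cd163 cluster Nr1d2 was called (-1.48, adjusted p = 0.0222) and Per3 was not (-0.93, adjusted p = 0.314).

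Fibroblast Ciart was 2.96-fold lower in SBP than in sham (log2 fold change -1.56, SE 0.42, adjusted p = 0.0480), from 23, 31 and 36 UMIs in sham and 14, 12 and 11 UMIs in SBP. The call held in 7 of 18 alternatives and was lost on leaving out any sham or SBP mouse, with adjusted p from 0.0959 without sham replicate 2 to 0.166 without sham replicate 3. In cardiomyocytes Per3 (-1.05, adjusted p = 0.0802) and Ciart (-1.87, 0.172) missed the threshold, and endothelial Per3 (-0.53, 0.360) did too. Cry1 in myeloid cells was 0.83 higher on the log2 scale with an adjusted p of 0.107.

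The genes also differed in where they were expressed. Over all 9 mice, neighbours in the order of the 4 cell types were compared within each mouse by an exact sign-flip permutation test (two-sided, 24 pairs, smallest possible p = 0.0039), and 8 pairs passed after adjustment. Per3 was higher in fibroblasts (133 ± 79.9 CPM, SD over 9 mice) than in endothelial cells (83.4 ± 39.9 CPM) in 9 of 9 mice and higher in cardiomyocytes (78.2 ± 44.3 CPM) than in myeloid cells (31.6 ± 26.0 CPM) in 9 of 9 (adjusted p = 0.0156 for both, exact). The difference between endothelial cells and cardiomyocytes did not pass. Nr1d1 had the same order: fibroblasts (78.5 ± 61.0 CPM) were above endothelial cells (35.3 ± 22.0 CPM) in 9 of 9 mice, and cardiomyocytes (22.3 ± 12.4 CPM) above myeloid cells (11.2 ± 9.56 CPM) in 8 of 9 (exact adjusted p = 0.0234).

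Nr1d2 was expressed in cardiomyocytes (178 ± 61.9 CPM), fibroblasts (191 ± 109 CPM) and endothelial cells (150.3 ± 68.8 CPM), whose order was not resolved, and lower in myeloid cells (75.4 ± 61.9 CPM, below endothelial cells in 8 of 9 mice, exact adjusted p = 0.0234). Per2 was higher in endothelial cells (74.8 ± 34.3 CPM) than in cardiomyocytes (33.6 ± 16.5 CPM), Cry1 higher in endothelial cells (30.9 ± 1.82 CPM) than in fibroblasts (20.6 ± 4.30 CPM), and Cry2 higher in cardiomyocytes (43.6 ± 9.75 CPM) than in myeloid cells (22.7 ± 8.60 CPM), each in 9 of 9 mice (exact adjusted p = 0.0156). Without I/R replicate 1 the pair of Per2 was no longer neighbouring or no longer passed. Fibroblasts had 75.4 ± 31.7 CPM of Per2 and 73.5 ± 11.9 CPM of Cry2, and endothelial cells 63.0 ± 17.3 CPM of Cry2, and myeloid cells had 28.4 ± 12.1 CPM of Per2 and 19.4 ± 7.999 CPM of Cry1, next to 17.2 ± 4.84 CPM of Cry1 in cardiomyocytes. Per1 (fibroblasts 105 ± 32.8, endothelial cells 98.5 ± 24.7, myeloid cells 96.7 ± 41.9, cardiomyocytes 62.1 ± 20.2 CPM) and Ciart (cardiomyocytes 14.4 ± 14.4, endothelial cells 5.66 ± 3.98, myeloid cells 4.56 ± 3.58, fibroblasts 5.34 ± 4.75 CPM) had no neighbouring pair that passed, the closest being Per1 in myeloid cells over cardiomyocytes (7 of 9 mice, exact adjusted p = 0.0563) and Ciart in cardiomyocytes over endothelial cells (8 of 9, exact adjusted p = 0.0597). These levels span all 3 groups, so the SDs of the genes that fell hold the group differences too.

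The 4 smaller types gave too few UMIs for a test, with 6293 to 252263 UMIs in a mouse, and their 3 libraries of a group were pooled without TMM scaling. In smooth muscle cells and pericytes Per3 was at 189 CPM (88 UMIs) in sham, 41.1 CPM (12 UMIs) in I/R and 122 CPM (49 UMIs) in SBP. Nr1d2 was at 252 CPM (117 UMIs), 75.4 CPM (22 UMIs) and 182 CPM (73 UMIs), and Nr1d1 at 125 CPM (58 UMIs), 27.4 CPM (8 UMIs) and 49.8 CPM (20 UMIs). The I/R values came from only 9, 3 and 28 nuclei. By mouse, Nr1d2 was at 21.6, 0 and 149.9 CPM in I/R. Nr1d1 was at 0, 0 and 63.1 CPM, so that I/R replicate 3 lay above sham replicate 1 (59.2 CPM). T cells had 105 CPM (34 UMIs) of Nr1d2 in sham, 32.5 CPM (11 UMIs) in I/R and 75.2 CPM (19 UMIs) in SBP. B cells had 140.0 CPM (32 UMIs), 37.6 CPM (2 UMIs) and 49.1 CPM (4 UMIs) of it in the same order of groups, and Schwann cells 115 CPM (13 UMIs), 39.6 CPM (2 UMIs) and 59.9 CPM (7 UMIs) of Per3. An I/R mouse had as few as 7 B cell nuclei and 8 Schwann cell nuclei. Other genes had other orders, such as Per1 in Schwann cells with 79.6 CPM (9 UMIs) in sham, 119 CPM (6 UMIs) in I/R and 111 CPM (13 UMIs) in SBP.

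The genes with the most similar pattern to each repressor were found by Pearson's r over 36 sums (9 mice in 4 types) of log2(CPM + 1) centred within type, among 10094 genes. The sums share mice and libraries, so r is a description. Values were not centred within group, so r also holds the differences between sham, I/R and SBP mice. For Per3 they were Tef (0.97), Dbp (0.96) and Nr1d2 (0.94), for Nr1d2 Tef (0.96), Per3 (0.94) and Nr1d1 (0.92), and for Nr1d1 Nr1d2 (0.92), Tef (0.86) and Per3 (0.85). Tef, a D-box factor, was thus among the 3 nearest genes of Per3, Nr1d1 and Nr1d2. The neighbours of the others were not clock genes: Irf2 (0.85), Map3k6 (0.81) and Ccny (0.81) for Per1, Slc1a5 (0.70), Nol11 (0.67) and Coq10b (0.66) for Per2, Uck2 (0.86), Gsr (0.83) and Plaa (0.79) for Cry1, and C1qtnf7 (0.73), Nedd4 (0.70) and Acadl (0.65) for Cry2. Ciart was not in the set because it failed the filter in myeloid cells.

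The rest of the loop was read from lists of its other parts. Among 7 activators and RORs, 3 rose and 1 fell after I/R in whole-heart sums, where 11.5% of all genes were called. Arntl, the gene of BMAL1, was at 11.3, 11.4 and 14.9 CPM in the sham mice, 124, 94.2 and 82.9 CPM in the I/R mice and 51.4, 40.0 and 67.7 CPM in the SBP mice. Every I/R mouse was far above every sham mouse (log2 fold change 2.90, SE 0.22, adjusted p = 0.000222), and the SBP mice lay between. Clock (log2 fold change 0.97, SE 0.11, adjusted p = 0.00172) and Npas2 (log2 fold change 1.11, SE 0.30, adjusted p = 0.0419) rose too, and Rora, an activator at ROR elements, fell (log2 fold change -0.89, SE 0.18, adjusted p = 0.0160). The call for Npas2 held in 10 of 18 alternatives. Arntl and Clock were called higher in each of the 4 cell types, with log2 fold changes for Arntl of 3.17 in cardiomyocytes, 3.11 in endothelium, 3.59 in fibroblasts and 1.75 in myeloid nuclei, and for Clock of 1.31, 0.86, 1.06 and 0.51. Arntl2 rose in endothelial cells (1.10) and fibroblasts (0.58), Npas2 in fibroblasts (3.07), and Rora fell in endothelial cells (-0.79), fibroblasts (-1.04) and myeloid cells (-1.44).

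Of the D-box factors, the activators Dbp, Tef and Hlf fell and their competitor Nfil3 rose in whole-heart sums, 4 of 4 called against 11.5% of all genes. Dbp, a direct target of BMAL1 and CLOCK, was at 69.9, 132 and 73.5 CPM in the sham mice, 4.91, 5.16 and 9.44 CPM in the I/R mice and 18.8, 35.9 and 28.9 CPM in the SBP mice. It fell by 3.62 on the log2 scale (SE 0.32, adjusted p = 0.000558). This exceeded the fall of any of the 8 repressors in the same sums. Tef (log2 fold change -1.69, SE 0.25, adjusted p = 0.00586), Hlf (log2 fold change -1.80, SE 0.23, adjusted p = 0.00363) and Nfil3 (log2 fold change 1.57, SE 0.30, adjusted p = 0.0139) followed. Dbp and Hlf were called lower in each of the 4 types (Dbp -3.36, -3.64, -3.86 and -3.26, and Hlf -1.45, -1.44, -1.89 and -2.03, in cardiomyocytes, endothelial cells, fibroblasts and myeloid cells). For Dbp in myeloid cells 0 I/R mice reached the level of the filter, from 27, 5 and 13 UMIs. Only 1 did for Dbp in endothelial cells and for Hlf in myeloid cells. These were tested through the groups in which they are higher, and the sizes of these falls depend on the pseudocount. Tef fell in cardiomyocytes (-1.32), fibroblasts (-1.82) and myeloid cells (-1.98), and Nfil3 rose in fibroblasts (2.58), from 16, 7 and 3 UMIs in the sham mice, of which 1 reached the level of the filter. In myeloid sums it had 1, 1 and 2 UMIs in the sham mice and 77, 304 and 64 UMIs in the I/R mice. It passed the filter on low values there only through the injured groups, so its call was fixed in part by the filter and its fitted fold change (4.03) depends on the pseudocount.

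The E-box competitors Bhlhe40 and Bhlhe41 (DEC1 and DEC2) both fell in whole-heart sums, Bhlhe41 by 1.52 (adjusted p = 0.00501) and Bhlhe40 by 0.78 (adjusted p = 0.0452, called in 6 of 18 alternatives) on the log2 scale. In fibroblasts Bhlhe41 (-2.16) and Bhlhe40 (-1.34) fell too, and in cardiomyocytes Bhlhe41 (-1.02). Of 10 kinases, ligases and other regulators of PER and CRY, 1 fell in whole-heart sums (against 11.5% of all genes called), the deubiquitinase Usp2 (log2 fold change -1.03, SE 0.28, adjusted p = 0.0438, called in 7 of 18 alternatives). In fibroblasts Btrc, a ligase subunit that marks PER for degradation, fell (-0.50) and Timeless rose (1.51).

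**Figure D5:**
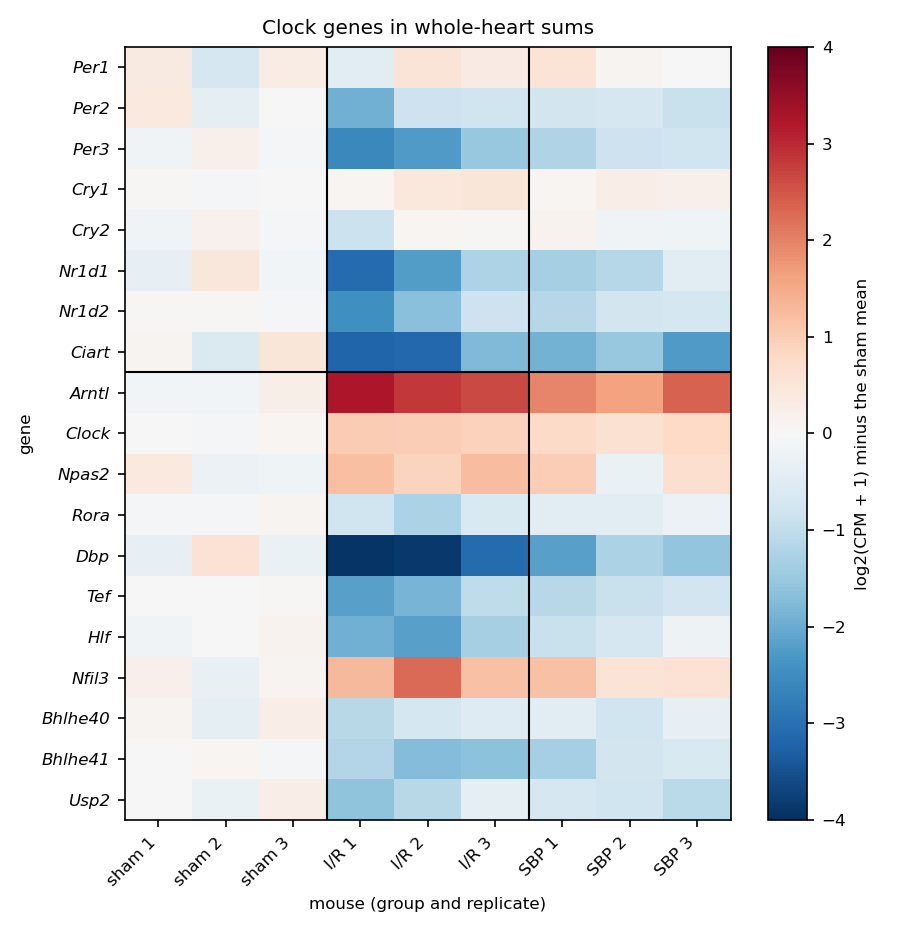
Whole-heart log2(CPM + 1) of the 8 repressors and 11 other clock genes in each of the 9 mice, as the difference from the mean of the 3 sham mice, on a colour scale from -4 to 4. Arntl, Clock and Nfil3 are above and Dbp, Ciart, Nr1d1 and Per3 below sham in all 3 I/R mice, and the SBP mice show smaller differences from sham for Arntl and Dbp.

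SBP against I/R gave no call in any of these lists with limma or voom weights. At an unadjusted p under 0.05 there were 3 of 7 activators and RORs, 4 of 4 D-box factors, 1 of 2 E-box competitors and 0 of 10 regulators in whole-heart sums, against 721 of 16066 genes in all. Against sham, SBP mice had higher Arntl (1.98) and Clock (0.72) and lower Dbp (-1.67) in whole-heart sums. Fibroblasts had higher Arntl (1.99), Arntl2 (0.65), Clock (0.71), Npas2 (1.76) and Timeless (1.33), endothelial cells higher Clock (0.57), and cardiomyocytes no call. In myeloid cells Arntl (2.05), Clock (0.56), Gsk3b (0.60) and, from the same few sham UMIs, Nfil3 (3.79) were higher and Rora (-1.28), Dbp (-2.19), Tef (-1.46) and Hlf (-1.44) lower. Dbp reached the level of the filter there in 3 sham, 0 I/R and 2 SBP mice. It was thus tested through the sham mice, in which it is higher. The change after I/R differed between cell types for Npas2, which rose more in fibroblasts than in the mean of the other types (2.09, adjusted p = 0.00826), and for Nfil3, which differed by 2.45 in myeloid cells (adjusted p = 0.0231, on 4 UMIs over the 3 sham mice) and by -2.30 in cardiomyocytes (adjusted p = 0.0401, kept in 2 of the 8 fits without 1 mouse that tested it). The value in cardiomyocytes is set against a mean that holds the myeloid sums, so it carries the same limit.

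The calls for these other clock genes differed in how firmly they stood. In whole-heart I/R against sham, Arntl, Clock, Dbp, Tef, Hlf and Bhlhe41 were called in 18 of 18 alternatives, and Rora (adjusted p = 0.0638) and Nfil3 (0.0539) were lost only without sham replicate 3. Npas2 was lost without any 1 of 7 mice (all but SBP replicates 1 and 2, adjusted p up to 0.134), Bhlhe40 without any of 6 (all but sham replicate 2, I/R replicate 3 and SBP replicate 2, up to 0.154) and Usp2 without any of 8 (all but I/R replicate 3, up to 0.146). Within types, Bhlhe41 in cardiomyocytes (6 of 18), Arntl2 (4 of 18) and Btrc (8 of 18) in fibroblasts and Clock in myeloid cells (6 of 19) were called in few alternatives, as were, in SBP against sham, Clock in endothelial cells (9 of 18) and myeloid cells (9 of 19) and Arntl2 (8 of 18) and Npas2 (6 of 18) in fibroblasts.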

How the data were processed

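Nuclei of 9 mouse hearts were profiled with the 10x Genomics 3′ v3 assay. Per the labels and methods, the authors trimmed reads with fastp, aligned and counted them with CellRanger and STAR on GRCm38 (mm10), down-sampled the libraries, kept nuclei with over 200 genes and under 10% mitochondrial UMIs, and used Seurat. The study states more cells than the 49171 nuclei analysed here. The deposited values are natural log values, ln(1 + 10000 × UMIs / total UMIs of the nucleus), and the authors left out mitochondrial genes. UMIs were recovered from them, and at least 99.99938% of values came out within 0.1 of a whole number.

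Nuclei were clustered in Scanpy 1.11.5 (Python 3.11.15) on 2000 variable genes and 30 components, with 20 neighbours and Leiden resolution 0.6, which was raised, and a mixed cluster split, after the data were seen. Scrublet marked 85 nuclei (0.1729%) as doublets, which were removed. So low a share was treated as a failed call, since no source used here states that doublets were removed before deposit (this was not tested), and an alternative removed the 2168 highest-scoring nuclei. Clusters (16) were named from fixed markers. UMIs were summed per mouse over all nuclei and over 4 cell types (at least 20 nuclei), scaled by trimmed mean of M values (TMM), and tested with limma 3.58.1 (R 4.3.3, trend and robust) on log2(CPM + 1) over all 9 mice, with Benjamini-Hochberg adjustment over all genes that passed a filter (in at least 3 mice a CPM worth 10 UMIs at the median library size, and 15 UMIs summed over mice). Cluster levels and those of the smaller types are CPM of their own total, without TMM scaling. Scripts were tested on simulated data. Limma was chosen because the deposited values are log values. No count model was fitted to the recovered UMIs, and voom weights on them were an alternative.

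The genes and the lists of other clock genes were chosen with earlier results of these data known. Named genes were the 8 repressors, each list gene called in a comparison, and the 3 genes with the highest r to each repressor. No source used here states that replicate numbers in the titles pair mice of different groups, and the fit did not pair them except in the replicate block. Intervals cover the spread between mice, and low UMI counts add counting error.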

Additional observations from a re-analysis of the deposited data

Results flagged for a closer look

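Among the 8 repressors, Nr1d2 was the one for which an effect differed between cell types by a test of the difference itself. In I/R against sham its fold change was less negative in cardiomyocytes than in the mean of endothelial cells, fibroblasts and myeloid cells, by 1.10 on the log2 scale (SE 0.17, adjusted p = 0.0135, limma over 10094 genes). The fold changes behind this were -0.99 in cardiomyocytes (adjusted p = 0.140) and -1.73 in endothelium (adjusted p = 0.0515), neither of them called, and -2.17 in fibroblasts and -2.38 in myeloid nuclei, both called. Leaving out 1 mouse at a time kept the call in 6 of 9 fits, and it was lost without sham replicate 2, sham replicate 3 or I/R replicate 2 (adjusted p from 0.0183 to 0.0859 over the 9 fits). Myeloid markers in cardiomyocyte sums and cardiomyocyte markers in the sums of the other types also moved between sham and I/R, and their part in the result was not tested. Among the other clock genes, Npas2 met the same test, rising more in fibroblasts than in the mean of the other 3 types by 2.09 after I/R (adjusted p = 0.00826, called in 9 of 9 fits without 1 mouse) and by 1.62 in SBP against sham (adjusted p = 0.0389, called in 2 of 9). Nfil3 met it in myeloid nuclei, by 2.45 after I/R (adjusted p = 0.0231, called in 6 of the 8 fits that tested it) and by 3.203 in SBP against sham (adjusted p = 0.0100, called in 8 of 8), but with 4 UMIs over the 3 sham mice it passed the filter there only through the injured groups, and the size of both differences depends on the pseudocount. In cardiomyocytes the difference for Nfil3 after I/R was -2.30 (adjusted p = 0.0401, called in 2 of 8), with group means of 12.4 CPM in I/R and 8.27 CPM in sham, and it carries the same limit, since the mean of the other types holds the myeloid sums. No sample was tested as an outlier, since each group held 3 mice.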

How the results depend on the processing

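Of 395 alternative values for the 22 called results on single genes, 320 kept the call, 75 kept the direction without passing, and none reversed. Of 390 recomputed counts, 333 stayed within 1.5 times. For I/R against sham, cardiomyocytes had 1 call (Per3) with voom weights, only the 6 mice compared, the replicate block or only the largest cluster. Fibroblasts had 3 with only the 6 mice and 2 in the largest cluster, and myeloid cells 1 in the largest cluster (Cry1), where sham nuclei were few. Cry1 was at 0 CPM there in every sham mouse, so this call rests on the floor. Over all genes the cardiomyocyte fits had 49 of 12850, 65 of 12601, 90 of 12850 and 120 of 12330 called, in the order named. Shares for the fibroblast and myeloid fits are not given here. For SBP against sham, whole-heart sums had 0 calls without a filter, with voom weights, with more doublets removed or with the replicate block, and 4 with only the 6 mice. Cardiomyocytes had 2 and fibroblasts 3 with only the 6 mice, and fibroblasts 0 with library totals, the mean over nuclei, more doublets removed, the replicate block or the largest cluster. Over all genes the cardiomyocyte fit with only the 6 mice called 396 of 12306, against 18 of 12850 with all mice. The rise in calls there is therefore not particular to the repressors. Myeloid cells had 1 in the largest cluster and 1 in the Cd163 cluster. Shares over all genes are not given here for the other alternatives of SBP against sham just named. The cause of the differences between fits was not tested. Leaving out 1 mouse at a time gave, for I/R against sham, 2 to 5 calls in whole-heart sums, 1 to 3 in cardiomyocytes, 0 to 6 in endothelial cells, 3 to 5 in fibroblasts and 3 to 4 in myeloid cells. For SBP against I/R it gave 0 to 1 in endothelial cells and 0 elsewhere. For SBP against sham it gave 0 to 4 in whole-heart sums, 0 to 1 in cardiomyocytes, 0 in endothelial cells, 0 to 2 in fibroblasts and 2 to 3 in myeloid cells. Calls over all genes moved too in the fits of I/R against sham without 1 mouse. They ran from 18 of 12685 to 814 of 12608 in cardiomyocytes and from 61 of 12005 to 619 of 12051 in endothelial cells. In these cell types the ranges for I/R against sham are therefore not particular to the repressors. Ranges over all genes are not given here for the other sums and comparisons. Differences between cell types gave 0 to 2 calls for cardiomyocytes and 0 to 1 for fibroblasts and for myeloid cells in I/R against sham, and 0 to 1 for myeloid cells in SBP against sham. Pairs of cell types in the order of levels that passed numbered 8 to 10. With the replicate block, I/R against sham had 4 calls in whole-heart sums and 3 in endothelial cells. Same-numbered mice of different groups had correlations of their deviations from -0.398 to 0.288 in whole-heart sums. Differently numbered mice had -0.307 to 0.457 there. In fibroblasts the medians were 0.123 and -0.0631 in this order. These values cannot show whether same-numbered mice shared a day or a batch, so pairing by number is unknown. Scaling by library total moved the median log2 fold change of all genes in whole-heart I/R against sham from -0.03 to 0.08, and Per2 to -1.05, Per3 to -1.99, Nr1d1 to -2.06, Nr1d2 to -1.52 and Ciart to -2.59, all still called. Ciart and Nr1d1 rest on few UMIs in single types after I/R, which limits their precision.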
